A study of Homo sapiens with 6 samples.

Results

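The genes described are 10 transcription factors of the network built around MYC and its partner MAX, out of 17787 gene symbols listed in any library of the series. They were chosen by symbol: MYC, MAX, MXD1, MXD3, MXD4, MXI1, MNT, MLX, MLXIP and MGA. Each symbol was present on a single row in every file, and all 10 genes passed the filter on low values, which 12555 genes passed. The cells were A549, a human line derived from a lung adenocarcinoma. A group of 3 libraries was labelled siNC and given the genotype wild type, and a group of 3 was labelled siFOXD3, after a small interfering RNA (an RNA that lowers the messenger RNA of a chosen gene) against the forkhead factor FOXD3. What siNC stands for is not written out, and it is taken here as the control; the labels name no culture, dose or time for either group. The comparison asks how messenger RNA levels differ when FOXD3 is targeted.

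MYC, MAX and their relatives are basic helix-loop-helix leucine zipper proteins that bind DNA in pairs, preferring the E-box sequence CACGTG. MYC has to pair with MAX to bind DNA and activate genes of growth, ribosome assembly and cell division. The MXD proteins, MXI1, MNT and MGA compete for the same MAX partner and repress transcription, the MXD proteins, MXI1 and MNT by recruiting SIN3 and histone deacetylases, and MGA within a Polycomb-type complex. MLX is a second hub, which pairs with the glucose-responsive activators MLXIP (also called MondoA) and MLXIPL (ChREBP) and with some MXD proteins and MNT.

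Values are FPKM, fragment counts corrected for gene length and for the size of the library, so that levels of different genes can be compared. A change is called at a Benjamini-Hochberg adjusted p under 0.05 from limma, a linear model fitted across all genes, on log2(FPKM + 1). Log2 fold changes are siFOXD3 minus siNC on that scale, where the added 1 shrinks the changes of genes at low levels. The targeted gene, FOXD3, was very low: 0.152, 0.291 and 0.134 FPKM in the siNC libraries, and 0, 0.0749 and 0 FPKM in siFOXD3, below the filter in every library. Fragments per library were not given, and the spacing of the lowest FPKM values put them at about 7520000 to 8500000. All 10 markers listed for A549, epithelial genes together with the enzymes ALDH1A1, AKR1C1, AKR1B10 and GPX2, were at 1 FPKM or more in both groups. Their summed level was 7696 to 8655 FPKM in siNC and 10700 to 10710 FPKM in siFOXD3. They did not move alike: KRT7 and CDH1 were called lower, KRT19 was not called and the others were called higher. The extraction text in the labels speaks of retina, while of 12 photoreceptor and retina markers 1 reached 1 FPKM in any siNC library and 0 did in siFOXD3, and SAG, GNAT1, RCVRN and OPN1SW were at 0 throughout. The summed levels of these markers were 1.28 to 2.64 FPKM in siNC and 1.36 to 1.62 FPKM in siFOXD3. At 1 FPKM in any siNC and any siFOXD3 library were 3 and 2 of 6 leukocyte markers (summed 74.3 to 84.6 and 67.4 to 68.4 FPKM), 1 and 1 of 6 fibroblast markers (3.61 to 4.56 and 2.96 to 3.58 FPKM, LUM and DCN at 0) and 1 and 1 of 4 endothelial markers (2.56 to 3.40 and 1.87 to 2.18 FPKM). The part of these differences in the results was not tested. Whether replicates came from separate cultures is not recorded in the labels, so the spread behind each p-value is that among these libraries and may be technical.

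Promoter stretches of 4 of the factors are shown because they hold letters that the network's own proteins, or forkhead proteins, are known to prefer. Promoters of 9 of the 10 genes were matched by symbol in RefSeq (14 windows on GRCh38.p14, of the 250 bases before a start site). MYC had no entry there, so its promoter was not searched. In the windows of the others, 2 motifs were searched on both strands. CACGTG, the canonical E-box, was found in 1 window each of MXD4, MNT and MLX, out of the 14. It occurs in 6.34% of the 35116 windows of the same length over all genes. TGTTTAC, a forkhead core, was found before 1 of the 3 start sites of MXI1, and it occurs in 2.98% of all windows. No match of either motif overlapped a match of the other, and a match describes the sequence, not a bound site. The stretches around the E-box are given 5′ to 3′ on the gene's strand, with the motif in capitals.
MXD4, chr4:2262330-2262359, minus strand: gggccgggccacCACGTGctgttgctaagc
MNT, chr17:2401236-2401265, minus strand: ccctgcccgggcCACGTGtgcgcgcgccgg
MLX, chr17:42567038-42567067, plus strand: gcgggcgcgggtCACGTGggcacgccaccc
The E-box begins 238 bases before the MXD4 start, 193 bases before the MNT start and 50 bases before the MLX start. In GENCODE 29 the windows of MXD4, MNT and MLX overlap annotated exons of their own genes. Whether the E-box itself lies within an exon was not tested. The MXI1 window overlaps no annotated exon in GENCODE 29, and its forkhead core, in capitals, begins 151 bases before the start site.
MXI1, chr10:110209981-110210230, plus strand: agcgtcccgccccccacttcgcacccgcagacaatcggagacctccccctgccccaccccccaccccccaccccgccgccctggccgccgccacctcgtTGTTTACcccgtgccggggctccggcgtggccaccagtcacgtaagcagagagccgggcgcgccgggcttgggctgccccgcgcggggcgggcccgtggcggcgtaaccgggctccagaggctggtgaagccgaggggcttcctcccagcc
Of the genes that hold an E-box here, MXD4 and MNT fell and MLX was not called, as described below with their levels.

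Of the 10 network genes, 3 rose (MYC, MAX and MGA), 5 fell (MXD1, MXD3, MXD4, MXI1 and MNT) and 2 were not called (MLX and MLXIP). Over all genes tested, 65.9% were called, 27.2% higher and 38.7% lower, so 8 of 10 called is to be read against a background in which most genes were called. The siNC and siFOXD3 values did not overlap for 9 of the 10 genes, 4 higher and 5 lower, where 70.7% of all genes tested had no overlap (29.6% higher and 41.1% lower). Each of those 9 had p = 0.1 in a two-sided exact permutation test, and with 3 libraries a side no smaller p can be reached. The median log2 fold change was -0.21 over the 10 genes and -0.08 over all genes tested.

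**Figure D1:**
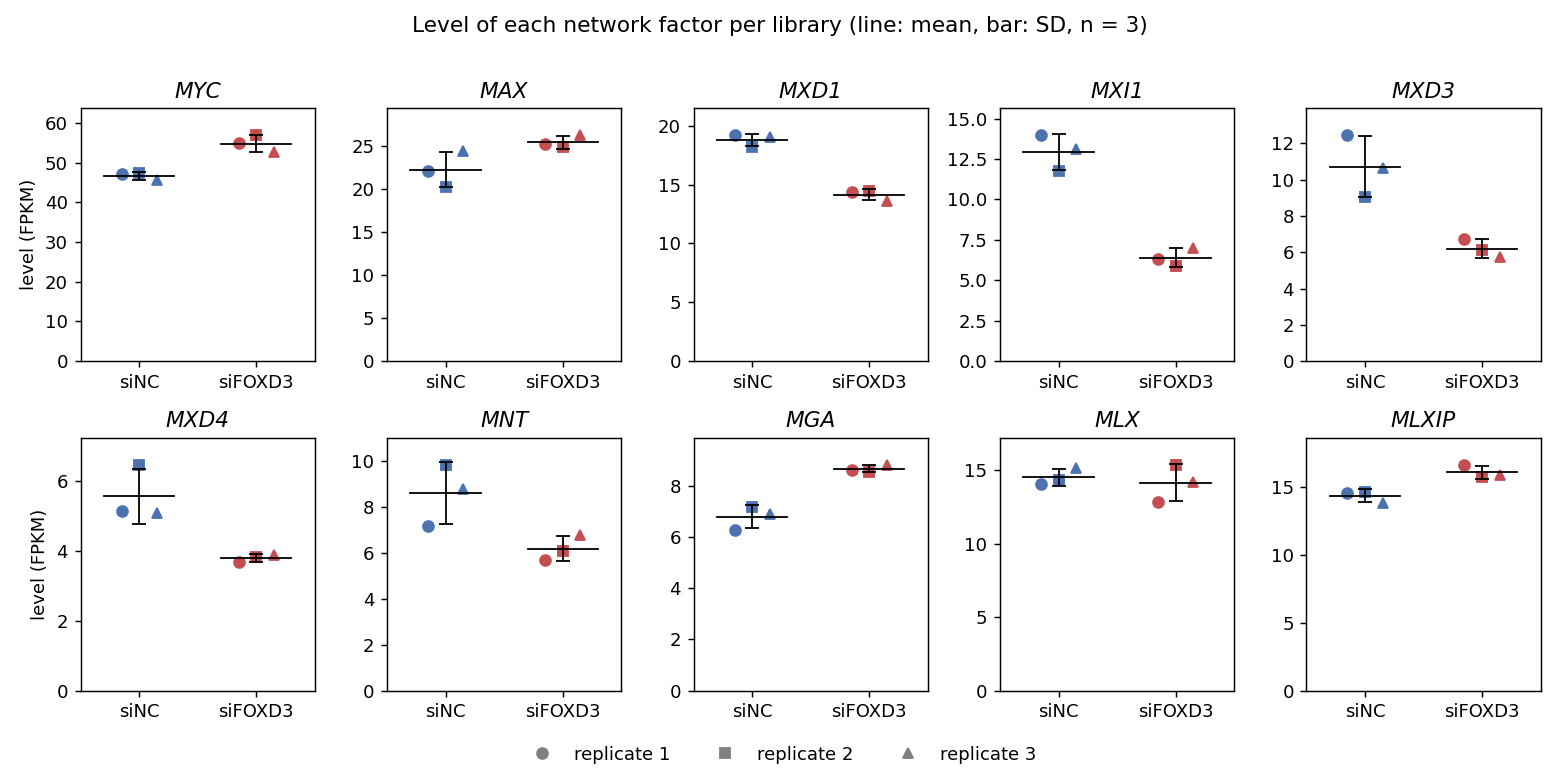
Level of each network gene in FPKM (vertical axes, from 0) in the 3 siNC and 3 siFOXD3 libraries, with marker shapes for replicate numbers, lines for means and bars for the SD. MXD1, MXI1, MXD3, MXD4 and MNT are lower in every siFOXD3 library than in any siNC library, MYC, MAX, MGA and MLXIP are higher, and MLX overlaps.

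MYC, the activator of the network, was its most abundant messenger RNA in both groups. Its level was 47.2, 47.4 and 45.6 FPKM in siNC replicates 1 to 3 and 54.9, 56.9 and 52.6 FPKM in siFOXD3 replicates 1 to 3. All siFOXD3 libraries lay above all siNC libraries, and the replicates of each group lay close together (SD 1.01 FPKM in siNC and 2.11 FPKM in siFOXD3). The means were 46.7 and 54.8 FPKM, so MYC was 1.17 times its siNC level in siFOXD3 (log2 fold change 0.23 ± 0.05 SE, limma, adjusted p = 0.00263). The rise is small beside other called genes: 24.3% of all genes tested were called higher with a change at least as large.

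MAX, the obligate partner of MYC, was at 22.0, 20.2 and 24.3 FPKM in siNC and at 25.1, 24.8 and 26.2 FPKM in siFOXD3. The groups did not overlap, but siNC replicate 3 was only just below the lowest siFOXD3 library. The log2 fold change was 0.19 ± 0.07 (SE, limma, adjusted p = 0.0381). This call was lost in 5 of the 6 fits that left out 1 library (every library but siNC replicate 3), with adjusted p up to 0.136 without siNC replicate 2.

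Among the MAX-bound repressors, MXI1 fell most. It was at 14.0, 11.7 and 13.1 FPKM in siNC and at 6.35, 5.86 and 7.02 FPKM in siFOXD3. Every siFOXD3 library was far below the lowest siNC library, and the ratio of means was 0.495. The log2 fold change was -0.91 ± 0.09 (SE, limma, adjusted p = 9.19e-06). A fall at least as large was called for 7.63% of all genes tested.

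MXD3, a repressor described in dividing cells, fell from 12.4, 9.06 and 10.6 FPKM in siNC to 6.74, 6.14 and 5.74 FPKM in siFOXD3. The siNC libraries were spread widely (coefficient of variation 15.8%), and the lowest of them was still above the highest siFOXD3 library. The log2 fold change was -0.69 ± 0.11 (SE, limma, adjusted p = 0.000253). In GENCODE 29, MXD3 shares 18% of its exonic bases with RAB24 on its own strand and 22.5% with PRELID1 on the opposite strand. RAB24, a small GTPase, fell from 16.2 ± 1.15 to 7.64 ± 0.395 FPKM (SD, n = 3) and PRELID1, a mitochondrial lipid transfer protein, rose from 128 ± 13.4 to 221 ± 2.27 FPKM. How reads were divided between these genes is not given in the sources used here, and their part in the MXD3 values was not tested.

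MXD1, a repressor known for its rise as cells leave the cycle and differentiate, was the most abundant of the repressors. It fell from 19.2, 18.2 and 19.1 FPKM in siNC to 14.3, 14.5 and 13.6 FPKM in siFOXD3. Both groups were tight, with coefficients of variation of 2.82% and 3.31%, and they were clearly apart. MXD1 in siFOXD3 was at 0.751 times its siNC mean, with a log2 fold change of -0.39 ± 0.06 (SE, limma, adjusted p = 0.000255).

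MXD4, the lowest member of the network in both groups, was at 5.15, 6.47 and 5.09 FPKM in siNC and at 3.68, 3.84 and 3.89 FPKM in siFOXD3. siNC replicate 2 stood above the others, and no siNC value came down to the siFOXD3 range. The log2 fold change was -0.45 ± 0.10 (SE, limma, adjusted p = 0.00275), and with quantile normalization it was -0.22 (adjusted p = 0.0704) and no longer called. At the estimated depth, the lowest MXD4 value corresponds to about 31.2 fragments per kilobase of transcript, against 467 for the highest MYC value.

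MNT, a broadly expressed repressor that also pairs with MLX, fell from 7.17, 9.82 and 8.78 FPKM in siNC to 5.69, 6.09 and 6.76 FPKM in siFOXD3. The gap between the groups was narrow, from 6.76 to 7.17 FPKM, and siNC replicate 2 was again the highest library. The log2 fold change was -0.41 ± 0.11 (SE, limma, adjusted p = 0.00733).

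MGA, a very large protein that joins a MAX-binding domain to a T-box, went the other way from the rest of the repressors. It was at 6.29, 7.16 and 6.91 FPKM in siNC and at 8.64, 8.55 and 8.81 FPKM in siFOXD3. The siFOXD3 libraries were nearly equal (coefficient of variation 1.56%) and all above siNC. The log2 fold change was 0.31 ± 0.08 (SE, limma, adjusted p = 0.00405). Of the 6 MAX-bound repressors, 5 fell and MGA rose, beside 38.7% of all genes called lower and 27.2% higher. A fall at least as large as that of MXD3 was called for 13.0% of all genes tested. For MXD4, MNT and MXD1 this share was 23.3%, 25.2% and 26.3%. A rise at least as large as that of MGA was called for 19.6%.

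In the MLX arm, neither MLX nor MLXIP was called. MLX was at 14.1, 14.3 and 15.2 FPKM in siNC and at 12.9, 15.4 and 14.2 FPKM in siFOXD3, and the groups overlapped. Its log2 fold change was -0.04 (95% interval -0.20 to 0.13, limma, adjusted p = 0.684), and the sign turned with median-of-ratios scaling (0.07), with quantile normalization (0.03) and without siFOXD3 replicate 1 (0.02). MLX shares 18.1% of its exonic bases with PSMC3IP, a recombination cofactor on the opposite strand, which rose by 0.42 on the log2 scale (adjusted p = 0.000828, limma); its part in the MLX values was not tested.

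MLXIP, which carries glucose signals from the cytoplasm to the nucleus, was at 14.6, 14.7 and 13.8 FPKM in siNC and at 16.6, 15.7 and 15.8 FPKM in siFOXD3. The groups did not overlap, and the log2 fold change was 0.15 (95% interval 0.01 to 0.29), just short of the threshold at an adjusted p of 0.0504 (limma). It passed the threshold in 7 of 15 alternative settings, with adjusted p from 0.00376 to 0.167. The alternative partner of MLX, MLXIPL, a relative outside the 10 genes, was at 2.88, 3.07 and 2.90 FPKM in siNC and at 0.894, 0.797 and 0.782 FPKM in siFOXD3, a log2 fold change of -1.11 ± 0.10 (SE). It passed the filter of 1 FPKM through its siNC libraries alone, so these values are given as a description. The other MYC genes were near or below the filter: MYCL1 averaged 0.952 FPKM in siNC and 1.04 FPKM in siFOXD3, with overlapping groups and a log2 fold change of 0.07, and MYCN was listed in no library. With quantile normalization MYCL1 was called higher (0.46, adjusted p = 0.00676, limma).

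**Figure D2:**
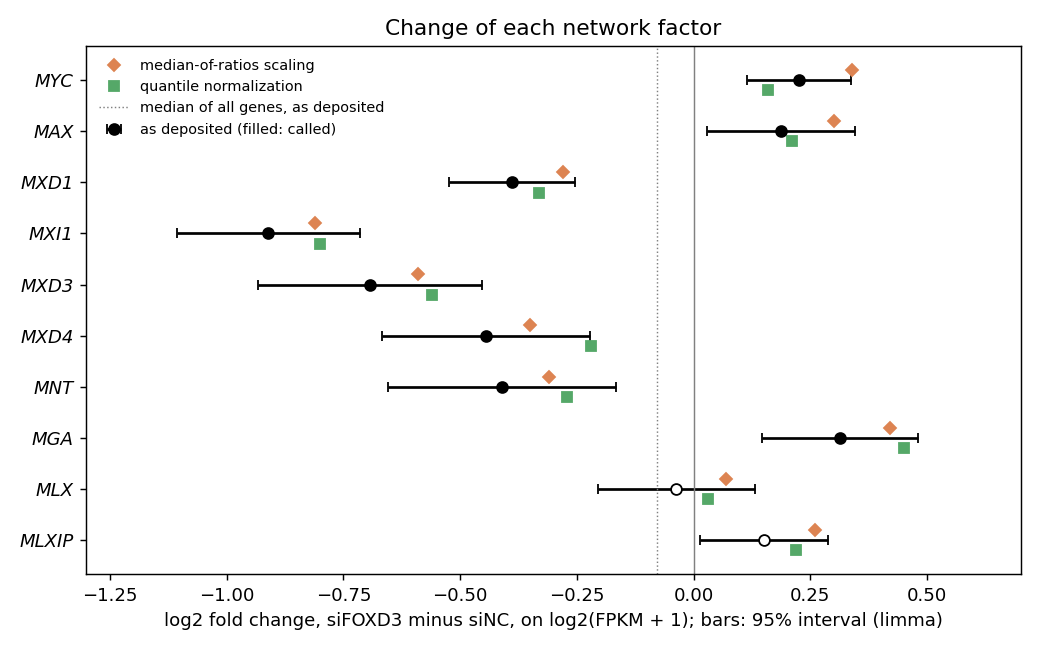
Log2 fold change of each network gene (horizontal axis, siFOXD3 minus siNC, on log2(FPKM + 1)) as deposited, with 95% intervals from limma (filled: called), and after median-of-ratios scaling and quantile normalization. MXI1 is lowest at -0.91 and MGA highest at 0.31, and MLX is the gene whose sign turns with the scaling.

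The choice of scaling between libraries moved the values. Over all genes the median log2 fold change lay at -0.08 with the deposited values, at 0.02 with median-of-ratios scaling and at 0.03 with quantile normalization, and the share of called genes that were higher went from 41.3% to 52.9% and 52.6%. Relative to the all-gene median as deposited, MYC was at 0.30, MAX at 0.27, MGA at 0.39, MXD1 at -0.31, MNT at -0.33, MXD4 at -0.37, MXD3 at -0.61 and MXI1 at -0.83. MYC was called higher and MXD1, MXD3, MXI1 and MNT lower in all 15 alternative settings, as was MGA higher.

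The order of levels within the network differed between the groups. In siNC the order of means was MYC, MAX, MXD1, MLX, MLXIP, MXI1, MXD3, MNT, MGA and MXD4. From MLX down to MNT each neighbour overlapped the next over the 3 libraries, and MGA overlapped MXD4. In siFOXD3 the order was MYC, MAX, MLXIP, MLX, MXD1, MGA, MXI1, MXD3, MNT and MXD4, with overlap between MLX and MXD1 and among MXI1, MXD3 and MNT. MGA, which ranked 9 of 10 in siNC, thus ranked 6 in siFOXD3, above MXI1, MXD3 and MNT in every library.

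Ratios within a library do not depend on a scaling factor per library, and they describe the balance of the network. The proportion of MYC to MAX was not seen to differ: the ratio of their FPKM was 2.14, 2.34 and 1.87 in siNC and 2.19, 2.29 and 2.01 in siFOXD3, with overlapping groups. The sum of the 6 MAX-bound repressors was 64.2, 62.4 and 63.6 FPKM in siNC and 45.4, 44.9 and 45.8 FPKM in siFOXD3. Against that sum, MYC stood at 0.736, 0.758 and 0.717 in siNC and at 1.21, 1.27 and 1.15 in siFOXD3. MYC was therefore below the summed repressors in each siNC library and above them in each siFOXD3 library, with a ratio of group means of 1.64. With the deposited values MYC was at 1.17 times and the summed repressors at 0.716 times their siNC means. Unlike the ratio between them, these 2 values move with a scaling factor per library. The log2 fold change of MYC was 0.23 as deposited and 0.34 with median-of-ratios scaling. Over the 15 alternative settings it lay between 0.16 and 0.34. These are messenger RNA levels, and no p is given for sums over genes chosen with earlier results known.

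MAX relative to all of its summed partners (MYC and the 6 repressors) was 0.198, 0.184 and 0.223 in siNC and 0.25, 0.243 and 0.266 in siFOXD3. MAX messenger RNA was thus well below the sum of its partners in every library, and less so in siFOXD3. The makeup of the repressors shifted as well. MGA made up 10.7% ± 0.841 of the summed repressors in siNC and 19.1% ± 0.128 in siFOXD3, MXI1 20.4% ± 1.49 and 14.1% ± 1.15, and MXD1 29.7% ± 0.447 and 31.1% ± 1.30 (SD, n = 3), the last with overlapping groups. In the MLX arm the ratio of MLXIP to MLX was 0.991 ± 0.0689 in siNC and 1.14 ± 0.136 in siFOXD3 (SD, n = 3), and the groups overlapped.

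**Figure D3:**
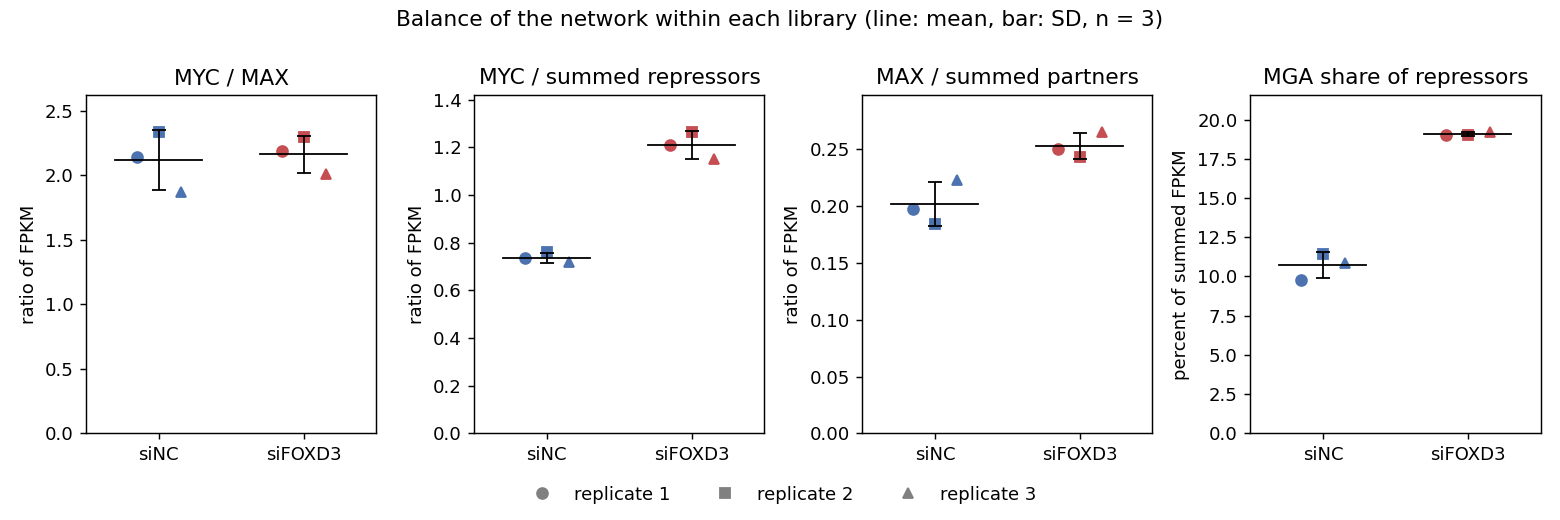
Ratios of FPKM within each library (vertical axes, from 0) for MYC to MAX, MYC to the 6 summed MAX-bound repressors and MAX to its summed partners, and MGA as a percent of the summed repressors, with lines for means and bars for the SD. MYC to MAX overlaps between the groups near 2.1, and MYC to the repressors goes from a mean of 0.737 in siNC to 1.21 in siFOXD3.

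The 3 tested genes whose profile over the 6 libraries was closest to that of MYC were SOX18, RBM42 and SRP68. Their root mean square distances from MYC on the centred log2(FPKM + 1) scale were 0.02, 0.0209 and 0.0217. RBM42, an RNA-binding protein, went from 64.9 ± 1.22 to 77.4 ± 1.52 FPKM and SRP68, a signal recognition particle subunit, from 30.5 ± 0.298 to 35.9 ± 1.33 FPKM (SD, n = 3). SOX18, a transcription factor known from endothelium, was near 1 FPKM and not called. At that level the added 1 shrinks changes, and the ratio of means was 1.31 for SOX18, beside 1.17 for MYC. With quantile normalization the log2 fold change of SOX18 went from 0.21 to 0.60 and was called (adjusted p = 0.00084, limma).

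Most genes listed as activated by MYC rose in siFOXD3. The 67 such targets, all tested, were written down from general knowledge with earlier results of these data known. They were chosen as widely listed targets, largely nucleolar, ribosome assembly, nucleotide, mitochondrial and cell cycle genes, so the count is a description. Some of them, such as TFRC, DUSP2 and MAP3K6, belong to none of these classes. Of these targets, 63 rose, 1 fell and 3 were not called, beside 27.2% of all genes called higher. Their median log2 fold change was 0.68 (0.71 with quantile normalization and 0.80 with median-of-ratios scaling), beside -0.08 for all genes. SRM, which makes spermidine, rose from 25.6 ± 3.33 to 77.8 ± 4.13 FPKM, and ODC1, the first enzyme of polyamine synthesis, from 67.8 ± 5.11 to 168 ± 9.21 FPKM (SD, n = 3). MRTO4, a ribosome assembly factor, rose from 14.6 ± 0.2 to 40.8 ± 0.76 FPKM and the nucleolar NOP16 from 21.2 ± 1.10 to 63.0 ± 1.01 FPKM. The fold changes of these 4 were 1.57, 1.30, 1.42 and 1.53 on the log2 scale, all larger than that of MYC itself. The target that fell was SHMT2, the mitochondrial serine hydroxymethyltransferase (176 ± 2.92 to 93.3 ± 1.46 FPKM), named after its value was seen.

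Genes described as repressed by MYC moved mostly the other way. Of 12 listed, 11 were tested, 8 fell, 2 rose and 1 was not called, beside 38.7% of all genes called lower, and the median log2 fold change was -0.67. The cyclin-dependent kinase inhibitors CDKN1A (35.1 ± 3.45 to 13.5 ± 0.678 FPKM) and CDKN2B (16.1 ± 1.10 to 8.41 ± 1.25 FPKM) fell, as did GADD45A, a growth arrest gene (52.6 ± 2.73 to 23.1 ± 2.06 FPKM; SD, n = 3). A further inhibitor, CDKN1C, had means of 3.07 ± 0.348 FPKM (siNC) and 0.789 ± 0.405 FPKM (siFOXD3). It is 1 of the 8, but of the siFOXD3 libraries only replicate 1 reached 1 FPKM (1.175 FPKM). CDKN1C thus passed the filter of 3 libraries through siNC, so its call gives no support to the count. CEBPA, a differentiation factor, and GADD45G rose, by 0.65 and 0.60 on the log2 scale, and they were named after their values were seen. GADD45G was not called without siFOXD3 replicate 1 (adjusted p = 0.0566, limma) or without siFOXD3 replicate 2 (adjusted p = 0.0547).

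Cofactors through which MYC activates genes rose in part. Of 18 chromatin and elongation partners, 12 rose and 1 fell, beside 27.2% and 38.7% of all genes, which left 5 without a call, and the median log2 fold change was 0.29. ACTL6A, an actin-like subunit of several remodelling complexes, rose from 54.8 ± 2.18 to 95.8 ± 3.32 FPKM, and RUVBL1, an ATPase of the TIP60 complex, from 66.7 ± 4.26 to 108 ± 3.22 FPKM (SD, n = 3). WDR5, a MYC-binding subunit of histone methyltransferases, and HCFC1, a host cell factor that also binds MYC, rose by 0.73 and 0.72 on the log2 scale. CDK9, the elongation kinase, was the member that fell (-0.38), and it was named after its value was seen.

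Corepressors that the MXD proteins and MNT recruit were listed together with ZBTB17, which is outside that class. Genes of this list were called in both directions. Of 18 genes, 6 rose (33.3%, near the 27.2% of all genes) and 3 fell (16.7%, beside 38.7%), which left 9 without a call, and the median log2 fold change was 0.06. BRMS1, a SIN3 complex subunit, rose from 37.8 ± 2.42 to 63.6 ± 1.05 FPKM, and SAP30 (0.44), ING2 (0.39) and the deacetylase HDAC1 (0.33) also rose on the log2 scale. NCOR1 (-0.18), ING1 (-0.21) and ZBTB17, the MYC-interacting factor MIZ1 (-0.27), fell, and were named after their values were seen. The calls of NCOR1 and ING1 were each lost in 4 of the 6 fits that left out 1 library. All 3 lost their call with either other scaling: with median-of-ratios scaling 10 genes rose and 0 fell, with quantile normalization 0 fell, and without siFOXD3 replicate 1, siNC replicate 2 or siNC replicate 3 only 1 fell.

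Partners of MGA in its Polycomb-type complex were called in both directions. Of 14 genes, 7 rose (beside 27.2% of all genes) and 4 fell (beside 38.7%), which left 3 without a call, and the median log2 fold change was 0.21. L3MBTL2, a methyl-lysine reader that defines this complex, rose with MGA, from 6.66 ± 0.455 to 12.4 ± 0.412 FPKM, and CBX3, a heterochromatin reader, from 129 ± 15.8 to 205 ± 9.26 FPKM (SD, n = 3). Some genes are counted in another list as well: WDR5 is among the cofactors, HDAC1 and HDAC2 among the corepressors and CBX3 among the MYC-activated targets. The ubiquitin ligase subunits RNF2 (-0.49) and RING1 (-0.33), CBX1 (-0.17) and the E2F partner TFDP2 (-0.58) fell on the log2 scale, all but TFDP2 named after their values were seen. CBX1 was at -0.05 and not called with median-of-ratios scaling (adjusted p = 0.359, limma).

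Genes that control the MYC protein were also called in both directions. Of 19 genes, 8 rose (42.1%, beside 27.2% of all genes) and 5 fell (26.3%, beside 38.7%), which left 6 without a call, and the median log2 fold change was 0.03. FBXO32, a ubiquitin ligase subunit also known as atrogin-1, changed most, with a log2 fold change of -1.80, and BTRC, another ligase subunit, fell from 10.3 ± 0.638 to 7.01 ± 0.427 FPKM (SD, n = 3). AURKA, a mitotic kinase that can stabilise MYC proteins, rose from 33.1 ± 2.15 to 68.9 ± 0.265 FPKM. KIAA1524, which encodes the phosphatase inhibitor CIP2A, rose from 43.8 ± 5.32 to 88.0 ± 1.69 FPKM. TRIM32, USP28 and GSK3B also fell, and were named after their values were seen. USP28 was not called without siFOXD3 replicate 1 (adjusted p = 0.0581, limma), siFOXD3 replicate 3 (0.0733) or siNC replicate 3 (0.091), nor with median-of-ratios scaling (-0.21, adjusted p = 0.0955) or quantile normalization (-0.12, adjusted p = 0.332). GSK3B was not called with median-of-ratios scaling (-0.13, adjusted p = 0.0682).

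Targets of MLX with MLXIP or MLXIPL were few. Of 7 listed, 6 were tested, 3 rose and 1 fell, which left 2 without a call; 4 of 6 called is close to the 65.9% of all genes, and the median log2 fold change was 0.05. TXNIP, a well-known target of MLXIP, was at 102, 77.5 and 66.5 FPKM in siNC and at 61.0, 58.2 and 62.2 FPKM in siFOXD3. The siNC values were widely spread, the log2 fold change was -0.41 (limma, adjusted p = 0.0165), and the call was lost without siFOXD3 replicate 2 (adjusted p = 0.0532) and with median-of-ratios scaling (0.0779). ARRDC4, a related arrestin and also a known target, rose by 0.38 (adjusted p = 0.0375), a call lost in 5 of the fits that left out 1 library. PFKFB3, a glycolytic regulator, rose from 7.36 ± 0.712 to 12.4 ± 0.693 FPKM, and HK2, hexokinase, by 0.20, a call lost in 4 of those fits. HK2 is counted among the MYC-activated targets as well.

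Other factors that bind E-boxes were read alongside. Of 9 listed, 8 were tested, 2 rose (25.0%, near the 27.2% of all genes) and 4 fell (beside 38.7%), which left 2 without a call, and the median log2 fold change was -0.07. TFEB, which drives lysosomal genes, fell from 5.51 ± 0.186 to 2.67 ± 0.0313 FPKM, and the sterol regulators SREBF1 (-0.64) and SREBF2 (-0.68) fell on the log2 scale. TFAP4, itself described as a MYC target, rose by 0.45 on the log2 scale. TFE3 (-0.22) and USF1 (0.27) were the other called genes, named after their values were seen. The TFE3 call was lost in 4 of the fits that left out 1 library and the USF1 call in 3, and the 2 rises became 4 with median-of-ratios scaling.

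**Figure D4:**
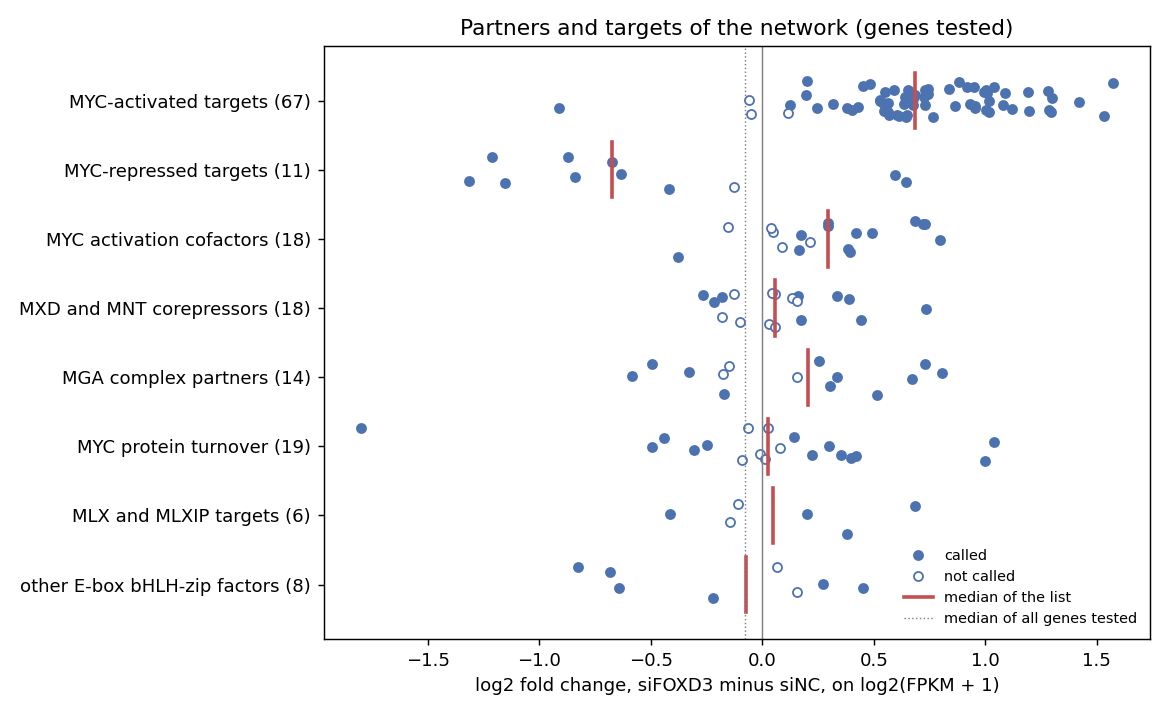
Log2 fold change (horizontal axis, siFOXD3 minus siNC) of every tested gene in 8 lists of network partners and targets, with the number tested in parentheses, filled points for called genes, red lines for list medians and a dotted line for the median of all genes. The MYC-activated targets lie mostly to the right, with a median of 0.68, and the MYC-repressed targets mostly to the left, with a median of -0.67.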

How the data were processed

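RNA sequencing of 6 A549 libraries gave, for each library, a table of FPKM per gene that the authors deposited. TopHat, Cufflinks and the genome build hg19 are named per the submitters' processing notes; the sources used here give no versions, strand handling or fragment counts. Rows of the same symbol were summed, and a symbol absent from a table was set to 0.

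Genes at 1 FPKM or more in at least 3 libraries were tested with limma 3.58.1 (R 4.3.3) on log2(FPKM + 1), with group as the only term, a trended prior and robust estimation, and Benjamini-Hochberg adjustment over the 12555 genes. The fit was tested on simulated data. Single values were compared by exact permutation tests, two-sided. Alternatives changed the pseudocount, filter, scaling, variance model, handling of repeated symbols, replicate block and libraries used. Depth was estimated from steps between low FPKM values for an assumed fragment length of 150 bases, and was 6720000 to 9340000 fragments over all lengths assumed.

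The network genes, the partner and target lists and the marker lists were chosen with earlier results of these data known. Named were all network genes, FOXD3, relatives outside the network list, up to 4 called genes of largest change in each list, and the 3 genes nearest to MYC. Promoters were taken from RefSeq (GRCh38.p14) and exon overlaps from GENCODE 29, and no coordinates were converted.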

Additional observations from a re-analysis of the deposited data

How the results depend on the processing

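MYC, MXD1, MXD3, MXI1, MNT and MGA kept direction and call in the 15 alternative settings. MAX lost its call with no filter and with no trend and no robust estimation (0.19 on the log2 scale in each), and ranged from 0.13 to 0.25 when 1 library was left out. MXD4 lost its call with quantile normalization (-0.22). MLX turned sign with median-of-ratios scaling (0.07), quantile normalization (0.03) and without siFOXD3 replicate 1 (0.02; range when 1 library was left out -0.09 to 0.02), and MYCL1 without siNC replicate 1 (-0.02). MLXIP passed the threshold with the highest row of a symbol (0.15), no trend and no robust estimation (0.15), a pseudocount of 0.1 (0.16) or 5 (0.12), median-of-ratios scaling (0.26) and quantile normalization (0.22), and without siNC replicate 1 (0.16), and ranged from 0.13 to 0.17 when 1 library was left out. The causes were not tested.

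Counts in the lists moved as follows. With median-of-ratios scaling the corepressors had 10 higher and 0 lower, protein turnover 3 lower, MLX and MLXIP targets 0 lower and other E-box factors 4 higher. With quantile normalization the corepressors had 0 lower, MLX and MLXIP targets 2 lower and the network relatives 1 higher. The relatives had 0 lower with a filter in all libraries, and the cofactors 2 lower with no trend and no robust estimation. When 1 library was left out, MYC-repressed targets had 1 to 2 higher, corepressors 1 to 4 lower, MLX and MLXIP targets 1 to 3 higher and 0 to 2 lower, and other E-box factors 1 to 2 higher.

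With the replicate number as a block, 3354 genes were called higher and 4818 lower, and no network gene changed its call (MLXIP 0.15, adjusted p = 0.0724, limma). HK2 and TFE3 lost theirs. Deviations of same-numbered libraries correlated at 0.0613, 0.163 and 0.115. Each library correlated best with its own number, a hint from the data and not from the design, and the numbers were not used as pairs. Per kilobase of transcript, MXD4 had the fewest estimated fragments of the network genes.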
